A study of Mus musculus with 6 samples.

Results

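The genes described here are 10 genes of the adenosine and tryptophan routes of immune suppression, chosen by gene name from 57462 entries measured in mouse tumours. Ectonucleotidases, adenosine receptors and adenosine deaminase gave 5 of them (Entpd1, Nt5e, Adora2a, Adora2b and Ada). The other 5 encode enzymes that break down tryptophan (Ido1, Ido2, Tdo2, Kynu and Kmo). Each name matched 1 entry. RNA sequencing covered 6 tumours of HM1, a mouse ovarian cancer cell line, taken from an early tumour model. In 3 tumours, called shST3GAL3, the labels give an ST3GAL3 knockdown by short hairpin RNA, and ST3GAL3 is an enzyme that adds sialic acid to sugar chains. In the other 3, called shControl, the hairpin was a control and the labels call the genotype wild type. By its title, the series concerned the activity of ST3GAL3 within tumour cells and immune responses to the tumour. The sources used here do not state host strain, sex, age or tumour site. Nor do they say whether each tumour grew in its own mouse, and a p-value here can reflect no more than the spread among 3 samples a group, possibly a technical one.

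Extracellular ATP, released by stressed or dying cells, is cut to AMP by CD39, the product of Entpd1, and AMP is cut to adenosine by CD73, the product of Nt5e. Adenosine acts on T cells, NK cells and myeloid cells through receptors that raise cyclic AMP, and it is removed by adenosine deaminase. Tryptophan is opened by the dioxygenases encoded by Ido1, Ido2 and Tdo2, which starves T cells of tryptophan and yields kynurenine, a ligand of the aryl hydrocarbon receptor AHR. Kmo and Kynu encode enzymes that carry kynurenine further.

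Levels are in TPM, a relative transcript abundance that is corrected for gene length and keeps no read number, so depth is unknown. St3gal3 itself stood at 7.57 ± 0.838 TPM in shST3GAL3 and 13.9 ± 0.127 TPM in shControl tumours (SD, n = 3 each), without overlap. Library shST3GAL3 1 stood apart. Its Pearson correlations with the other 5 libraries, across the 14207 tested genes, were 0.926 to 0.956, while those among the other 5 were 0.971 to 0.982. Summed TPM of 8 fibroblast markers was 6528, 1873 and 1284 in shST3GAL3 1, 2 and 3, against 807, 692 and 1104 in shControl 1, 2 and 3. For 6 endothelial markers the sums were 200, 91.1 and 79.5 TPM in shST3GAL3, against 55.8, 41.7 and 56.3 TPM in shControl tumours. For 8 macrophage markers they were 2350, 1783 and 1327 TPM in shST3GAL3, against 1324, 1268 and 1113 TPM in shControl tumours, and the groups did not overlap for any of these 3 lists. The sums of 9 epithelial tumour markers were 1773, 2700 and 3211 TPM in shST3GAL3, against 3293, 3687 and 3207 TPM in shControl tumours. Within that list Krt8 reached 1295 TPM, while Muc16 was listed at 0 in all 6 libraries, Pax8 was at 0 in 3, and Epcam did not pass 1.17 TPM. The fold changes of the 10 genes, the list medians and the marker ratios that changed are therefore also given without shST3GAL3 1. In whole tumours, more cells of a type and more RNA per cell cannot be told apart.

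Most of the 10 genes had higher mean levels in the shST3GAL3 tumours, but none passed the test over all genes. Log2 fold changes, of shST3GAL3 over shControl, were computed from log2(TPM + 1), which understates the change of low genes. They come from limma, fitted to 14207 genes that reached 1 TPM in at least 3 libraries. Of the 10 genes 9 entered that test, and 0 passed at an adjusted p under 0.05, where 0.00704% of all tested genes did (1 gene). Their limma adjusted p ran from 0.38 to 0.99. Unadjusted p was under 0.05 for 3 of the 9 (Entpd1, Nt5e and Ada), all with higher values in shST3GAL3 tumours, against 9.19% of tested genes in that direction and 13% in either. The log2 fold change was positive for 8 of the 9, against 52.7% of tested genes, and its median was 0.46, against 0.013 over all tested genes. For 6 of the 9, every shST3GAL3 value lay above every shControl value, which held for 15.7% of tested genes, and for 0 of the 9 every value lay below, against 7.76%. Without shST3GAL3 1 that count was also 6, against 21.2% of tested genes, and the median log2 fold change was 0.43. An exact two-sided permutation test cannot give a p below 0.1 with 3 samples against 3.

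**Figure D1:**
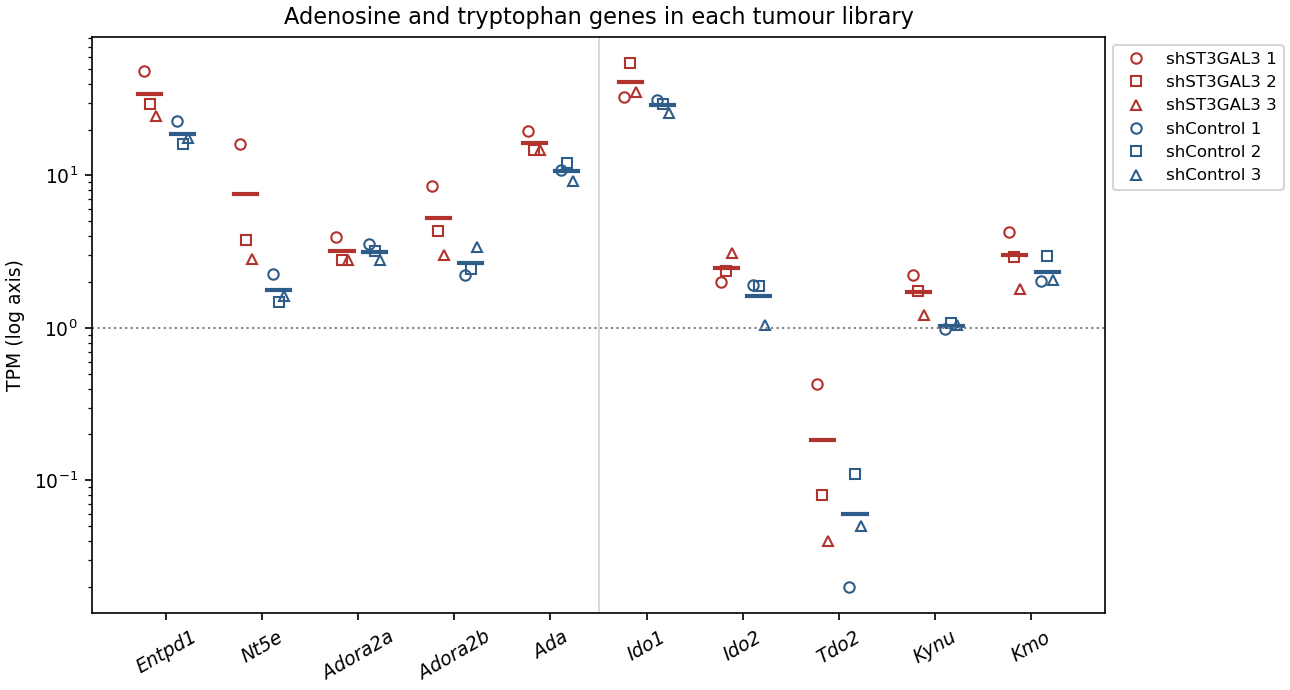
TPM of each of the 10 genes (log axis) in every library, with shST3GAL3 values left of shControl values, a bar at each group mean and a dotted line at 1 TPM. Ido1, Entpd1 and Ada were the most abundant, Tdo2 lay below 1 TPM in every library, and Nt5e in shST3GAL3 1 stood at 16.04 TPM, far above its other values.

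The order of levels was led by Ido1, Entpd1 and Ada. In shST3GAL3 tumours the means were 41.0 ± 12 TPM for Ido1, 34.1 ± 12.5 for Entpd1 and 16.3 ± 2.81 for Ada, against 28.9 ± 2.90, 18.8 ± 3.48 and 10.7 ± 1.45 TPM in shControl tumours (SD, n = 3 each). Ido1 was the highest of the 10 in 5 libraries, Entpd1 in shST3GAL3 1, and Ada was the third in all 6. In shControl tumours the ranges of these 3 genes did not overlap, whereas in shST3GAL3 tumours Ido1 and Entpd1 did. Next in shST3GAL3 tumours came Nt5e (7.56 TPM), Adora2b (5.27), Adora2a (3.18), Kmo (2.99), Ido2 (2.48) and Kynu (1.73), and each neighbouring pair overlapped. In shControl tumours the order was Adora2a (3.17 TPM), Adora2b (2.67), Kmo (2.34), Nt5e (1.78), Ido2 (1.61) and Kynu (1.04), and each neighbouring pair overlapped there too. Tdo2 was the lowest of the 10 in all 6 libraries.

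The ectonucleotidase genes, which encode the enzymes that make adenosine outside cells, were both above the shControl range in all 3 shST3GAL3 tumours. Entpd1 stood at 48.24, 29.28 and 24.71 TPM in shST3GAL3 1, 2 and 3, against 22.69, 15.98 and 17.71 TPM in shControl 1, 2 and 3. The groups did not overlap, with shST3GAL3 1 the highest and shST3GAL3 3 only slightly above shControl 1. This gave a log2 fold change of 0.78 (SE 0.25, 95% confidence interval 0.17 to 1.39, limma adjusted p = 0.38). Without shST3GAL3 1 it was 0.51 (SE 0.16, adjusted p = 0.346). An entry that the files describe as antisense to Entpd1 was listed at 0 in all 6 libraries.

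Nt5e stood at 16.04, 3.8 and 2.84 TPM in shST3GAL3 1, 2 and 3, against 2.25, 1.48 and 1.62 TPM in shControl 1, 2 and 3. The groups did not overlap, but shST3GAL3 1 alone was several times the next value. Nt5e had the highest log2 fold change of the 10 genes at 1.3 (SE 0.54, 95% confidence interval 0.0060 to 2.59, limma adjusted p = 0.385). Of the tested genes 1.3% had a log2 fold change at least as high. Without shST3GAL3 1 it was 0.64 (SE 0.20, adjusted p = 0.345). The ratio of Nt5e to Entpd1 was 0.333, 0.13 and 0.115 in shST3GAL3 1, 2 and 3, against 0.0992, 0.0926 and 0.0915 in shControl 1, 2 and 3. The 3 shControl ratios were almost the same, all below those of shST3GAL3 tumours (exact two-sided permutation p = 0.1, adjusted over 7 ratios of gene pairs 0.35).

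The adenosine receptor genes differed from each other. Adora2a, which encodes the A2a receptor, stood at 3.97, 2.78 and 2.78 TPM in shST3GAL3 tumours, against 3.54, 3.2 and 2.77 TPM in shControl tumours. Both groups covered nearly the same range. Its log2 fold change was -0.0059 (SE 0.17, limma adjusted p = 0.99), with a 95% confidence interval of -0.41 to 0.40, so differences within those bounds could not be told from none. It was -0.14 without shST3GAL3 1, and its sign turned without any 1 of 4 other libraries (up to 0.0599), so no direction can be given. Adora2b, which encodes the A2b receptor, stood at 8.53, 4.3 and 2.99 TPM in shST3GAL3 tumours, against 2.21, 2.43 and 3.37 TPM in shControl tumours. Here shST3GAL3 3 lay below shControl 3, and shST3GAL3 1 was again the highest. For Adora2b the log2 fold change was 0.69 (SE 0.33, 95% confidence interval -0.094 to 1.47, limma adjusted p = 0.402), and without shST3GAL3 1 it was 0.34 (SE 0.21, adjusted p = 0.574). The ratio of Adora2b to Adora2a was above 1 in all 3 shST3GAL3 tumours (2.15, 1.55 and 1.08), against 0.624, 0.759 and 1.22 in shControl tumours. These overlapped (exact two-sided permutation p = 0.2, adjusted over the 7 ratios 0.35).

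Ada, which encodes the enzyme that turns adenosine into inosine, also had all 3 shST3GAL3 values above the shControl range. It stood at 19.56, 14.74 and 14.64 TPM in shST3GAL3 tumours, against 10.8, 12.13 and 9.23 TPM in shControl tumours, without overlap. Ada had a log2 fold change of 0.56 (SE 0.15, 95% confidence interval 0.19 to 0.92, limma adjusted p = 0.38), with the lowest unadjusted p of the 10 genes. Without shST3GAL3 1 it was 0.43 (SE 0.13, adjusted p = 0.336). The ratio of Entpd1 to Ada was 2.47, 1.99 and 1.69 in shST3GAL3 tumours, against 2.1, 1.32 and 1.92 in shControl tumours. These ratios overlapped (exact two-sided permutation p = 0.5, adjusted 0.7).

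Promoter sequences are shown for the 4 adenosine genes with positive fold changes. These genes had their highest levels in the same library, shST3GAL3 1, as did Kynu, Kmo and Adora2a. No promoter was found for Adora2a. RefSeq promoters (build GRCm38.p6, another than the GRCm39 of the files) were found by symbol for 6 of the 10 genes, with 2 start sites for Entpd1, 7 windows in all. Each window holds the 250 bases before a start site. Both strands were searched for the core site of AHR (GCGTG), the core site of hypoxia-inducible factors (ACGTG), the cyclic AMP response element (TGACGTCA), the interferon gamma activated site (TTCNNNGAA) and the interferon-stimulated response element. Capitals mark the matches found, written as they stand on the strand of the gene, so that a match on the other strand reads CACGC. The windows are chr19:40612116-40612365 (plus strand) and chr19:40659520-40659769 (plus strand) for Entpd1, chr9:88327359-88327608 (plus strand) for Nt5e, chr11:62248734-62248983 (plus strand) for Adora2b and chr2:163750240-163750489 (minus strand) for Ada.
Entpd1, first start: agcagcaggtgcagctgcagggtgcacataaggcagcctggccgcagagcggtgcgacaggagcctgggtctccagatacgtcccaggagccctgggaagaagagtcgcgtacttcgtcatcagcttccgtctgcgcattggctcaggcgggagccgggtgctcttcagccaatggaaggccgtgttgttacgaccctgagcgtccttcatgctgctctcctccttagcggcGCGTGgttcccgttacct
Entpd1, second start: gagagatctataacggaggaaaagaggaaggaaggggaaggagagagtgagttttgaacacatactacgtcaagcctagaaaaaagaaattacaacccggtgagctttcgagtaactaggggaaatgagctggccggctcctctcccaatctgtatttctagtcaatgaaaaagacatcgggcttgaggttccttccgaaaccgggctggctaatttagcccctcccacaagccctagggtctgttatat
Nt5e: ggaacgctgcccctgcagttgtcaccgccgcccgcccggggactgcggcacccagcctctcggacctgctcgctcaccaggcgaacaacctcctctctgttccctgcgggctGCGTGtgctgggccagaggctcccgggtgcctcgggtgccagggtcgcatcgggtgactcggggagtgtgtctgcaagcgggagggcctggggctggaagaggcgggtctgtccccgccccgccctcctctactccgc
Adora2b: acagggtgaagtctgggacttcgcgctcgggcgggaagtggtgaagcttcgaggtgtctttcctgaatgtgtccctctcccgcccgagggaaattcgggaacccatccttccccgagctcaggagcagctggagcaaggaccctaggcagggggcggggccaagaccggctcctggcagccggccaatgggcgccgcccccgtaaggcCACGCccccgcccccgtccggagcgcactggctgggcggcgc
Ada: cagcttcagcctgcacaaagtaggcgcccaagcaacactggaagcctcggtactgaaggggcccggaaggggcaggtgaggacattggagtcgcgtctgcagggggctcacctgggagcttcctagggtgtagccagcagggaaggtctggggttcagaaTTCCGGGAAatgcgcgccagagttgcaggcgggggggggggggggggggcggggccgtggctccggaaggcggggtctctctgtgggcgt
The AHR core stood in 4 of the 7 windows (Entpd1 first start, Nt5e, Adora2b and Tdo2) and in 28.2% of all 32851 promoter windows of this length. The interferon gamma activated site stood in 1, that of Ada, where its first base lies 90 bases before the start, and in 7.02% of all windows. The windows held 0 matches to the other 3 motifs, which stood in 16.6% (hypoxia), 2.98% (interferon-stimulated) and 1.55% (cyclic AMP) of all windows. A match is a description of the letters, and which start site was used in these tumours was not measured.

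Ido1, the tryptophan-opening enzyme gene that interferon gamma induces, was the most abundant of the tryptophan genes. It stood at 32.72, 54.75 and 35.53 TPM in shST3GAL3 1, 2 and 3, against 31.43, 29.59 and 25.75 TPM in shControl 1, 2 and 3. The groups did not overlap, but shST3GAL3 1 was only slightly above shControl 1, and the highest value was that of shST3GAL3 2. Its log2 fold change was 0.46 (SE 0.20, 95% confidence interval -0.015 to 0.93, limma adjusted p = 0.389). It was 0.60 (SE 0.19, adjusted p = 0.346) without shST3GAL3 1 and 0.23 (SE 0.12, adjusted p = 0.427) without shST3GAL3 2. Ido1 thus stood in another order over the shST3GAL3 libraries than the ectonucleotidase genes, with its lowest value in shST3GAL3 1.

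Ido2, the neighbouring paralog of Ido1 with 0 protein-coding genes between them in the RefSeq annotation, was far less abundant. It stood at 2, 2.36 and 3.08 TPM in shST3GAL3 1, 2 and 3, against 1.92, 1.88 and 1.04 TPM in shControl 1, 2 and 3. The groups did not overlap, although shST3GAL3 1 and shControl 1 were nearly equal. Ido2 had a log2 fold change of 0.42 (SE 0.22, 95% confidence interval -0.099 to 0.94, limma adjusted p = 0.419), 0.52 without shST3GAL3 1 and 0.25 (SE 0.21, adjusted p = 0.726) without shControl 3. The ratio of Ido1 to Ido2 ran from 11.5 to 23.2 in shST3GAL3 and from 15.7 to 24.8 in shControl tumours, with overlap (exact two-sided permutation p = 0.6, adjusted 0.7). Tdo2, a dioxygenase gene known for its activity in liver, was at the edge of the measurement. It stood at 0.43, 0.08 and 0.04 TPM in shST3GAL3 1, 2 and 3, against 0.02, 0.11 and 0.05 TPM in shControl 1, 2 and 3, and did not enter the test. Of 4 hepatocyte markers, Ttr was listed at 0 in all 6 libraries, and their sum did not pass 0.32 TPM.

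The downstream kynurenine genes were low in all tumours. Kynu, which encodes kynureninase, stood at 2.23, 1.74 and 1.22 TPM in shST3GAL3 tumours, against 0.99, 1.07 and 1.05 TPM in shControl tumours. The shControl values were tightly grouped and all lay below those of shST3GAL3 tumours. For Kynu the log2 fold change was 0.41 (SE 0.20, 95% confidence interval -0.068 to 0.88, limma adjusted p = 0.403), and 0.28 without shST3GAL3 1. Kmo, which encodes the enzyme that hydroxylates kynurenine, stood at 4.25, 2.93 and 1.8 TPM in shST3GAL3 tumours, against 2.02, 2.95 and 2.05 TPM in shControl tumours. Its groups overlapped, and shST3GAL3 3 held the lowest value of all 6. Kmo had a log2 fold change of 0.22 (SE 0.26, 95% confidence interval -0.40 to 0.85, limma adjusted p = 0.696), 0.0016 (SE 0.22) without shST3GAL3 1, 0.46 without shST3GAL3 3 and 0.35 without shControl 2. Per library, Kmo exceeded Kynu by a factor of 1.91, 1.68 and 1.48 in shST3GAL3 tumours, against 2.04, 2.76 and 1.95 in shControl tumours. The shST3GAL3 ratios were all lower (exact two-sided permutation p = 0.1, adjusted over the 7 ratios 0.35).

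**Figure D2:**
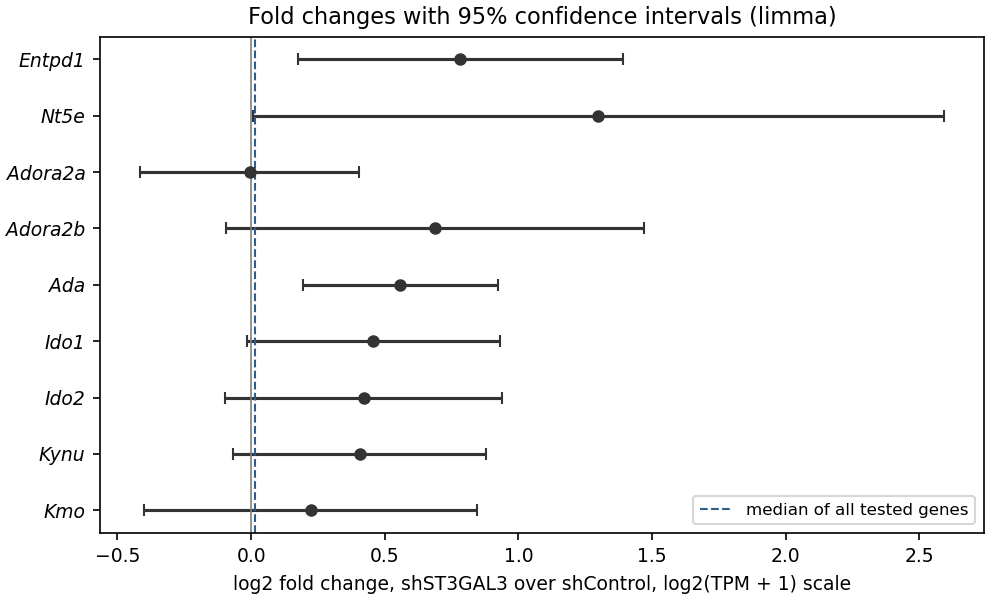
Log2 fold change of shST3GAL3 over shControl for the 9 tested genes, with 95% confidence intervals from limma and the median of all tested genes as a dashed line. The intervals of Entpd1, Nt5e and Ada lie above 0, before any adjustment for the number of genes tested, and that of Adora2a is centred near 0.

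The 5 adenosine genes and the 4 tested tryptophan genes were spread differently over the libraries. All 5 adenosine genes had their highest value in shST3GAL3 1, while 2 of the 4 tryptophan genes did (Kynu and Kmo). Median deviations from the shControl mean on the log2(TPM + 1) scale were 1.33, 0.54 and 0.39 in shST3GAL3 1, 2 and 3 for the adenosine genes, against 0.13, -0.085 and -0.077 in shControl 1, 2 and 3. For the tryptophan genes they were 0.44, 0.40 and 0.21 in shST3GAL3, against 0.04, 0.10 and -0.14 in shControl tumours. A difference between both gene groups was not tested.

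**Figure D3:**
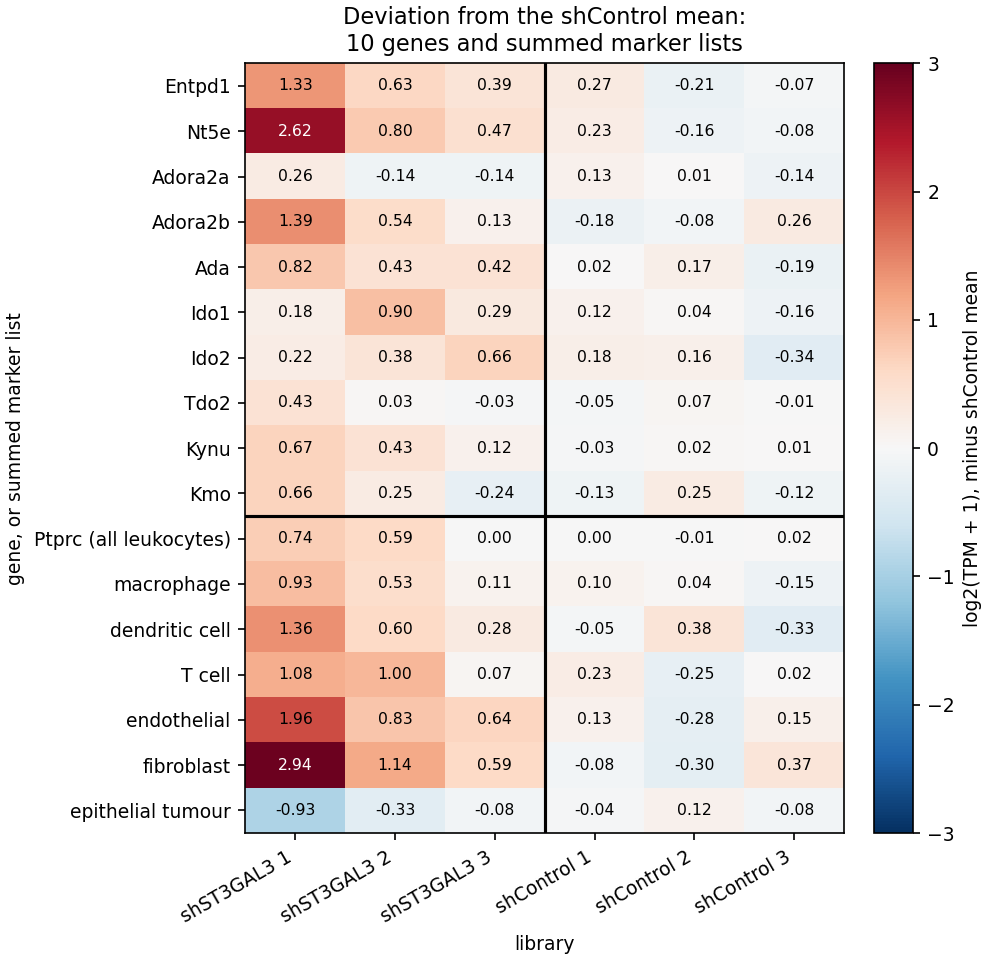
Deviation of each library from the shControl mean, log2(TPM + 1), for the 10 genes (upper block) and for summed marker lists (lower block), with shST3GAL3 libraries on the left. Nt5e (2.62) and the fibroblast sum (2.94) were both highest in shST3GAL3 1, while Ido1 was highest in shST3GAL3 2 (0.90).

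Each of the 9 tested genes was set library by library against the same 6 marker lists, which were not chosen gene by gene. Tdo2 and the epithelial tumour markers were left out. No marker gene passed over all genes. Of the 6 lists used, summed levels did not overlap between the groups for 3 (macrophage, endothelial and fibroblast). Those of 3 (Ptprc, dendritic and T cell) did. The macrophage sums separated only narrowly, at 1327 TPM in shST3GAL3 3 against 1324 TPM in shControl 1. Taken singly, 4 of the 8 macrophage markers lay above the shControl range, against 15.7% of tested genes. The log2 ratio of a gene's TPM to a summed marker list was compared for 9 genes and 6 lists, 54 ratios in all, and the smallest exact two-sided permutation p was 0.1 (0.386 adjusted over the 54). Set against Ptprc, the gene of the leukocyte surface protein CD45, Nt5e and Kynu lay above the shControl range, 2 of 9 genes, against 2.83% of tested genes. Ptprc itself stood at 47.76, 42.73 and 28.05 TPM in shST3GAL3 tumours, against 28, 27.85 and 28.45 TPM in shControl tumours. Over the 6 lists, 0 to 2 of the 9 genes lay above and 0 to 4 below. Set against the macrophage list, 1 of 9 lay above (Nt5e, against 2.39% of tested genes) and 1 below (Adora2a, against 25.1%). Set against the dendritic cell list, 1 lay above (Nt5e, against 0.704%) and 2 below (Adora2a and Kmo, against 19.5%), and with the median of the list's log2 TPM in place of its sum all 3 overlapped. Set against the T cell list, 0 lay above (against 0.908%) and 1 below (Adora2a, against 12.6%). Set against the 6 endothelial markers, 0 lay above (against 0.429%) and 2 below (Adora2a and Kmo, against 80.9%). Below the shControl range relative to Ptprc lay 0 of 9, against 16.7%. Set against the 8 fibroblast markers, 0 of 9 genes lay above the shControl range, against 0.155% of tested genes, and 4 lay below it (Adora2a, Adora2b, Kynu and Kmo), against 70.7%. Without shST3GAL3 1, Ido1 also lay above relative to Ptprc (by 0.31 in log2 units) and the macrophage list (by 0.29), and Kmo below relative to Ptprc (-0.31) and the T cell list (-0.54). With 2 libraries against 3 the groups separate more readily, and no share of tested genes was computed there.

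Nt5e is known to be expressed by fibroblasts and endothelial cells as well as by lymphocytes. The log2 ratio of Nt5e to Ptprc was higher by 1.21 in shST3GAL3 tumours without overlap (exact permutation p = 0.1), and by 0.60 without shST3GAL3 1, again without overlap. On the log2(TPM + 1) scale the difference was 0.85, with overlap, and that of Kynu was -0.037, with overlap. Relative to the fibroblast markers the difference was 0.11 (exact permutation p = 0.8), turning to -0.26 on the log2(TPM + 1) scale, with means of -8.81 ± 0.138 in shST3GAL3 and -8.92 ± 0.465 in shControl tumours (SD, n = 3 each). Those ratios overlapped between the groups, with the shControl ratios the more spread. Relative to the 6 endothelial markers Nt5e differed by 0.51, with overlap (exact permutation p = 0.2). Relative to the 7 T cell markers it differed by 0.95, with overlap (exact permutation p = 0.2). With the median of the T cell markers' log2 TPM the difference was 0.82, without overlap (exact permutation p = 0.1). Whether fibroblasts, endothelial cells or lymphocytes carried the Nt5e transcripts was not tested.

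Entpd1 is known to be expressed by macrophages, endothelial cells and regulatory T cells. Relative to the macrophage markers it was higher by 0.29 in log2 units with overlap, with means of -5.76 ± 0.161 in shST3GAL3 and -6.05 ± 0.231 in shControl tumours (SD, n = 3 each, exact permutation p = 0.2). With the median of the macrophage markers' log2 TPM in place of their sum, the difference was 0.17 without overlap (exact permutation p = 0.1). Relative to the 6 endothelial markers it differed by -0.34 with overlap (exact permutation p = 0.2). Summed TPM of 4 regulatory T cell markers ran from 10.3 to 28.5 in shST3GAL3 and from 6.43 to 7.34 in shControl tumours, without overlap. Their part in the Entpd1 levels was not tested.

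Adora2a, with nearly equal levels in both groups, lay below the shControl range relative to 5 of the 6 lists, all but Ptprc. For those 5 lists, 12.6% (T cell) to 80.9% (endothelial) of all tested genes lay below it too. The log2 ratio of Adora2a to the 8 macrophage markers was -9.14 ± 0.220 in shST3GAL3 and -8.61 ± 0.0545 in shControl tumours (SD, n = 3 each). This was a difference of -0.54 without overlap (exact permutation p = 0.1). Its difference relative to the 7 T cell markers was -0.73 (exact permutation p = 0.1). Ido1, which dendritic cells can express, was set against 8 dendritic cell markers. Their sums were 204, 120 and 95.8 TPM in shST3GAL3 1, 2 and 3, against 75.9, 103 and 62.5 TPM in shControl 1, 2 and 3. The log2 ratio of Ido1 to them differed by -0.28 with overlap (exact permutation p = 0.7). It turned to 0.17 without shST3GAL3 1 and to 0.025 with the median of the list's log2 TPM, so no direction can be given.

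**Figure D4:**
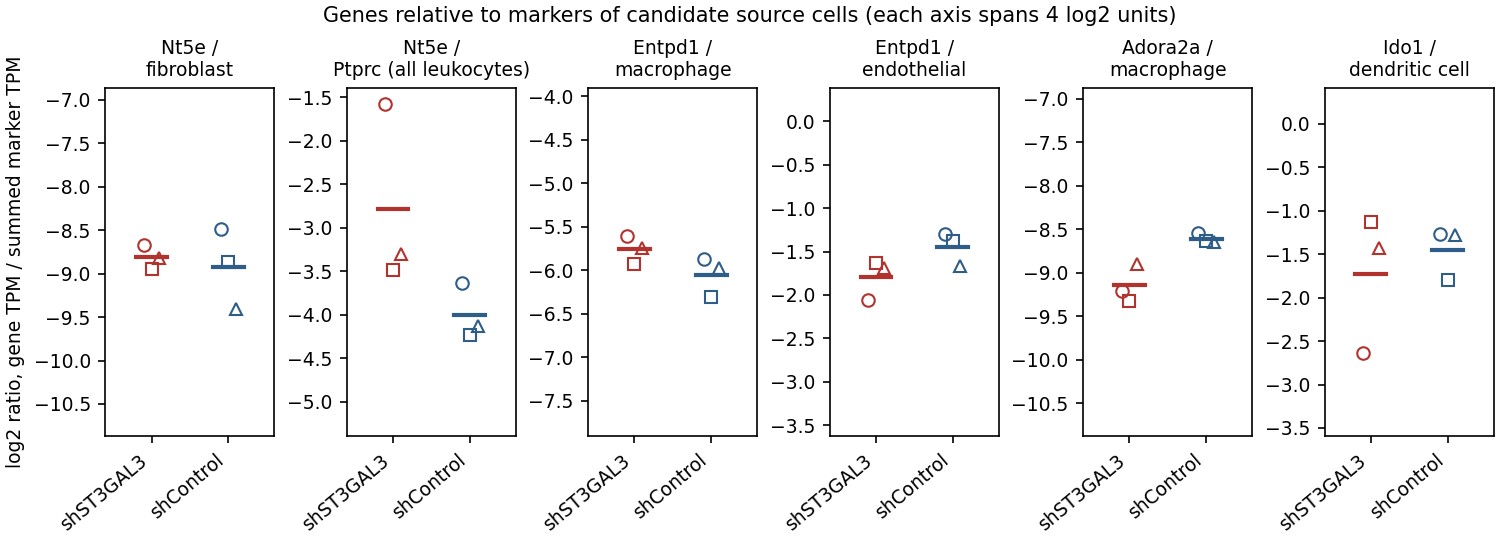
Log2 ratio of a gene's TPM to the summed TPM of a marker list, per library, with shST3GAL3 left of shControl, bars at group means and each axis spanning 4 log2 units; circles, squares and triangles are replicates 1, 2 and 3. Nt5e lay above the shControl range relative to Ptprc and not relative to fibroblast markers, and Adora2a lay below it relative to macrophage markers.

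For each gene, the 2 most like it over the 6 libraries were sought among the 125 other tested genes of the lists by Pearson's r of log2(TPM + 1), as a description. Entpd1 was most like Pecam1, an endothelial adhesion gene (r = 0.993, Spearman's rho = 1), and Thy1 (0.986, rho = 1). Nt5e was most like Cd68, a macrophage gene (0.993, rho = 1), and Slc7a8 (0.992, rho = 0.943), and Adora2b was most like the collagen gene Col3a1 (0.995, rho = 0.943) and Kdr (0.987, rho = 0.943). Without shST3GAL3 1 these 6 values of r were between 0.955 and 0.991. Ada was most like the nucleotide receptor gene P2ry6 (0.978) and Foxp3 (0.966), and Kynu was most like Slc29a3 (0.985) and C1qb (0.982). Ido1 was most like Irf1, a transcription factor gene of the interferon response (0.877, rho = 0.943), and the muscle gene Myh4 (0.875, rho = 0.551). Ido2 was most like Entpd4 (0.900) and Wars (0.836), and Kmo was most like Adgre1 (0.939) and Jchain (0.902). Without shST3GAL3 1, r was 0.833 and 0.719 for this last pair, and between 0.877 and 0.994 for the list genes named for Ada, Kynu, Ido1 and Ido2. The likest to Adora2a were Wt1 (0.771) and Zbtb46 (0.727), which had r of 0.363 and 0.0526 without shST3GAL3 1. With 6 libraries, of which 1 stands apart, and 125 genes compared with each, high values are common.

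The other genes of adenosine and extracellular nucleotide handling were mixed. Of 42 listed genes 29 were tested, 0 passed, 17 had a positive log2 fold change, and the median was 0.10 (0.064 without shST3GAL3 1 and 0.062 without shControl 1). Unadjusted p was under 0.05 for 7, all higher in shST3GAL3 tumours, against 9.19% of tested genes in that direction, and for 0 in the other direction. Those 7 were the pyrimidinergic receptor gene P2ry6, the ATP-gated channel gene P2rx4, the ATP release channel gene Panx1, the nucleoside transporter genes Slc28a2 and Slc29a3, the ectonucleotidase family gene Entpd4 and the NAD-consuming ectoenzyme gene Bst1. P2ry6 stood at 44.9, 29.38 and 25.63 TPM in shST3GAL3 tumours, against 19.31, 20.98 and 16.87 TPM in shControl tumours (log2 fold change 0.74, SE 0.21, limma adjusted p = 0.38). Panx1, whose channel lets ATP out of cells, stood at 23.51, 18.02 and 21.24 TPM in shST3GAL3, against 17.57, 14.84 and 12.6 TPM in shControl tumours (0.46, SE 0.15, limma adjusted p = 0.38). Entpd4, whose product sits inside the cell, had a log2 fold change of 0.62 (SE 0.16, limma adjusted p = 0.38), and its near-identical copy Entpd4b one of -1.25 (SE 0.34, limma adjusted p = 0.38). Their reads may have been divided between them, so the value of Entpd4 is uncertain; Entpd4b was looked up after the values were seen. For each of the 7 the groups did not overlap, but the 7 were picked by unadjusted p in the same data. Of the 29 tested genes 8 lay above the shControl range and 0 below, against 15.7% and 7.76% of all tested genes. The remaining log2 fold changes were 0.44 for P2rx4, 0.63 for Slc28a2, 0.62 for Slc29a3 and 0.78 for Bst1, each with a limma adjusted p of 0.38.

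Of 22 other tryptophan and kynurenine genes 13 were tested, and 0 passed. Log2 fold changes were positive for 10 of the 13 (median 0.28, or 0.16 without shST3GAL3 1), and unadjusted p was under 0.05 for 4 higher and 1 lower gene, against 9.19% and 3.78% of tested genes. The higher ones were Wars, Kyat3, Slc7a8 and Gpr35. Wars encodes the tryptophan tRNA synthetase, which interferon gamma induces, and it stood at 75.53, 75.5 and 81.89 TPM in shST3GAL3 tumours, against 67.8, 57.56 and 57.02 TPM in shControl tumours (log2 fold change 0.35, SE 0.092, limma adjusted p = 0.38). Its shST3GAL3 values were closely grouped, without overlap with shControl. Kyat3, a kynurenine aminotransferase gene, had a log2 fold change of 0.58 (SE 0.20), the amino acid transporter gene Slc7a8 one of 0.65 (SE 0.23), and Gpr35, the gene of a receptor that kynurenic acid can activate, one of 0.48 (SE 0.20), with limma adjusted p of 0.38 for the first 2 and 0.384 for Gpr35.

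The lower gene was Ahr, which encodes the receptor that kynurenine activates. It stood at 11.2, 14.24 and 13.52 TPM in shST3GAL3 tumours, against 15.25, 17.1 and 16.85 TPM in shControl tumours. All shST3GAL3 values were below all shControl values, with shST3GAL3 1 the lowest (log2 fold change -0.32, SE 0.12, limma adjusted p = 0.38). Of 6 AHR-responsive genes 3 were tested. Cyp1b1, which fibroblasts also express, stood at 24.37, 8.56 and 6.22 TPM in shST3GAL3 tumours, against 4.37, 3.99 and 8.4 TPM in shControl tumours, with overlap (0.93, SE 0.49, limma adjusted p = 0.426). Tiparp (-0.071, SE 0.093) and Nqo1 (-0.075, SE 0.16) had log2 fold changes near 0, and the AHR target Cyp1a1 did not pass 0.15 TPM in any library.

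**Figure D5:**
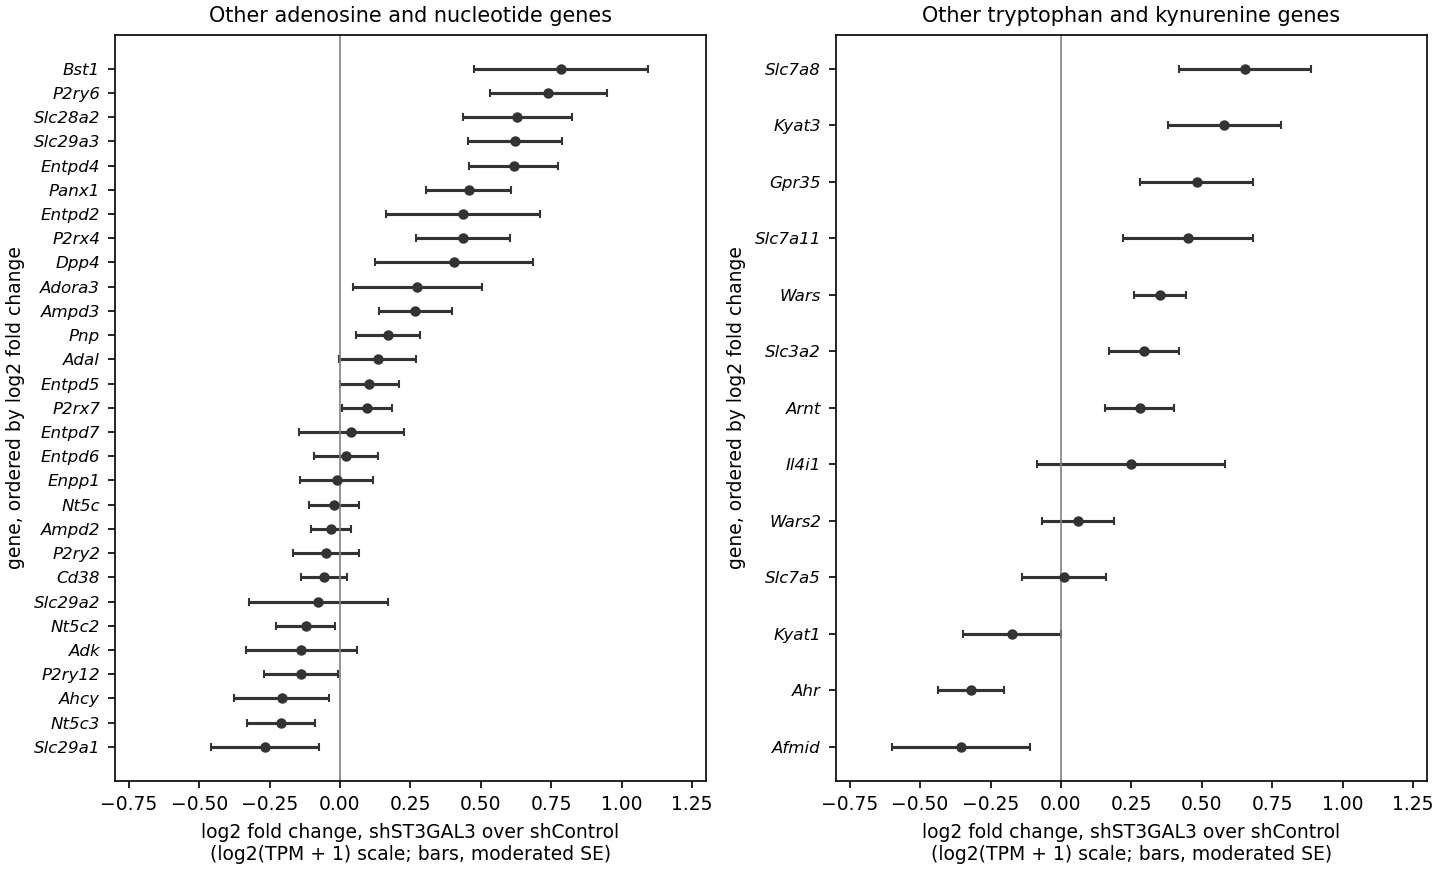
Log2 fold change of shST3GAL3 over shControl, with moderated SE, for the 29 tested other adenosine and nucleotide genes (left) and the 13 tested other tryptophan and kynurenine genes (right). The values run from -0.27 to 0.78 on the left and from -0.36 to 0.65 on the right, and none passed over all genes.

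Genes of the interferon gamma axis, which induces Ido1, mostly had higher means in the shST3GAL3 tumours. All 10 were tested and had positive log2 fold changes with a median of 0.60 (also 0.60 without shST3GAL3 1), 9 had an unadjusted p under 0.05, against 9.19% of tested genes in that direction, and 0 passed over all genes. Irf1 stood at 265.61, 315.79 and 246.48 TPM in shST3GAL3 1, 2 and 3, against 211.06, 173.28 and 171.4 TPM in shControl 1, 2 and 3 (0.57, SE 0.12, limma adjusted p = 0.38). As with Ido1, its highest value was in shST3GAL3 2. The receptor genes Ifngr1 and Ifngr2 had log2 fold changes of 0.51 and 0.47, and Ciita, the gene of a regulator of antigen presentation, one of 0.50, each with a limma adjusted p of 0.38. Ifng itself, the cytokine gene, stood at 4.67, 3.93 and 2.06 TPM in shST3GAL3 tumours, against 2.77, 1.77 and 2 TPM in shControl tumours, with overlap (0.48, SE 0.27, limma adjusted p = 0.437). The log2 fold change of Ido1, 0.46, was below those of the interferon-induced genes Socs1 (0.77), Gbp2 (0.73), Cxcl9 (0.69) and Cxcl10 (0.64), each with a limma adjusted p of 0.38, but the difference was not tested.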

How the data were processed

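RNA sequencing libraries of 6 tumours were grouped by their titles, 3 shST3GAL3 and 3 shControl. The deposited values are TPM per gene with 2 decimals, judged from sums of 999999 to 1000001 a library. Per the submitters' processing notes, the tools were fastp, HISAT and RSEM and the build was GRCm39, with no versions or roles. Neither annotation release nor strandedness is stated in those notes. TPM keeps no read number, so precision rests on the 3 samples of each group, and reads of near-identical genes may have been divided between them.

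A gene was kept if 3 libraries or more reached 1 TPM. Log2(TPM + 1) was then fitted on the group alone with limma 3.58.1 (R 4.3.3), its mean-variance trend switched on, and p-values were adjusted over 14207 genes (Benjamini-Hochberg, 0.05). The procedure was tested on simulated data. The 10 genes and all lists were chosen with earlier results of these data known, so counts over them are descriptions. Besides the 10 genes and St3gal3, list genes were named where their unadjusted p was under 0.05, or else for the smallest p, and for each of the 10 the 2 list genes most like it. Single values of some list genes are not reported here. Alternatives covered pseudocount, filter, scaling, weights, the replicate number as a block and leaving out each library. Promoters came from RefSeq (GRCm38.p6), matched by symbol with no conversion of coordinates.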

Additional observations from a re-analysis of the deposited data

How the results depend on the processing

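The median log2 fold change of the 9 tested genes stayed within the spread between libraries under all alternatives that kept all 9. It was 0.41 to 0.55 with 1 library at a time left out. Fits with library weights called 2 of the 10 genes, Ido1 (log2 fold change 0.83, limma adjusted p = 0.0394) and Ada (0.44, 0.05), and 695 genes in all. Those weights did not converge and gave shST3GAL3 2 a weight of 6.17 and shST3GAL3 1 one of 0.179. With the gene-by-gene method for the weights, added after the data were seen, 0 of the 10 genes and 8 genes in all were called. Over all genes, 2 were called with a pseudocount of 0.1 or 0.5 or without the mean-variance trend, and 1 to 3 with 1 library left out, against 1 in the fit reported. Leaving out 1 library called 0 of the 10 genes in every case. It put 6 or 7 of them above the shControl range, against 20.2% to 23.1% of tested genes (15.7% with all libraries). The log2 fold change of Adora2a ran from -0.14 to 0.0599 over those fits, and the median of the 3 tested AHR-responsive genes from -0.10 to 0.0187. With the replicate number as a block, 0 of the 10 genes were called, 1 gene was called over all, and Entpd1 and Ada had the lowest adjusted p among the 10 (limma, 0.332). Same-numbered libraries had correlations of -0.0799 to 0.0402 between their deviations from the group mean. Those of differently numbered libraries ran from -0.123 to 0.128. With 3 samples a group, this cannot decide whether the numbers pair the samples. Of the 54 marker ratios 14 were without overlap in either direction, against 12 with the median of a list's log2 TPM as denominator. Of all tested genes, 0.155% (fibroblast) to 2.83% (Ptprc) lay above the shControl range relative to a list. Below it lay 12.6% (T cell) to 80.9% (endothelial), so the count of 14 is no result about the 10 genes. Added after the data were seen, the log2(TPM + 1) scale gave 13, both changes together 10, and leaving out shST3GAL3 1 gave 18. Groups of 2 and 3 libraries separate more readily, so 18 cannot be compared with 14. No share over all tested genes was computed for these alternative counts. Median-ratio scaling, quantile normalization and leaving out genes of mitochondria, ribosomal proteins and immunoglobulins moved the share of higher genes at an unadjusted p under 0.05 from 70.8% to 54.1%, 47.8% and 62.7%, and turned no sign among the 10 genes. With a mean of at least 5 TPM required, Entpd1, Ada and Ido1 were tested and the other 7 had no value. The median there, 0.56, was thus over 3 genes. Depth is unknown, so no limit of detection can be given for Tdo2.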

Other observations

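Markers of further cell types also differed between libraries. The summed TPM of 6 B and plasma cell markers was 3864, 297 and 38.4 in shST3GAL3 1, 2 and 3, against 14.9, 42.7 and 3 in shControl 1, 2 and 3, so shST3GAL3 1 held most of it. The sums of 4 NK cell markers ran from 26.0 to 49.3 TPM in shST3GAL3 and from 21.0 to 27.9 TPM in shControl tumours. For 5 neutrophil markers they ran from 44.2 to 278 TPM in shST3GAL3 and from 51.1 to 109 TPM in shControl tumours. For 4 adipocyte markers they ran from 12.5 to 71.3 TPM in shST3GAL3 and from 6.83 to 11.7 TPM in shControl tumours. Listed at 0 in at least 1 library were Adipoq, Plin1 and Lep among the adipocyte markers and Myh4 among the muscle markers. The sums of 4 skeletal muscle markers were 2.35, 302 and 52.5 TPM in shST3GAL3 1, 2 and 3, against 77.6, 0.74 and 12.1 TPM in shControl 1, 2 and 3. Muscle markers were highest in shST3GAL3 2, the library with the highest Ido1, and their part in the Ido1 level was not tested.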
